A study of Mus musculus with 4 samples.

Results

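The genes described here are 8 members of the bone morphogenetic protein (BMP) pathway: the ligands Bmp2, Bmp4 and Bmp7, the antagonist Grem1, the decoy receptor Bambi, and the target genes Id1, Id2 and Id3. They were chosen by name, though with earlier results of these data known, and all 8 were found among the 32285 genes listed in the count matrices. The question was which cells of a mouse pancreatic tumour hold BMP ligand mRNA, KPC-3403 tumour cells among them, and how high the Id genes are in tumour and stromal cells.

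The study grew orthotopic pancreatic tumours in C57BL/6J mice from KPC-4545 or KPC-3403, a pair of cell lines from the KPC mouse model of pancreatic cancer. Tumours were taken on day 13 with no treatment in any group. From each line came 1 library of the whole dissociated tumour and 1 enriched library, sorted to be negative for CD45 (leukocytes), CD31 (endothelium), EPCAM (epithelium) and TER119 (erythroid cells). The 4 libraries are therefore 1 per line and preparation, each line stands for itself, and the labels do not say whether animals were pooled or shared, so every p-value below measures the spread between these libraries.

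Total UMIs, which count captured RNA molecules, ran from 5746733 in the whole KPC-4545 library to 51450719 in the enriched KPC-3403 library. The cells kept were 1518 for enriched KPC-4545, 528 for whole KPC-4545, 2467 for enriched KPC-3403 and 1091 for whole KPC-3403. The enriched KPC-4545 and whole KPC-3403 libraries shared 132 cell barcodes, against 6 to 8 for each other pair. For 129 of them the enriched KPC-4545 copy held a median of 2.55% of the UMIs that the barcode had in the whole KPC-3403 library (range 2.15% to 6.78%). Barcodes with under 10% of the UMIs that they had in another library were set aside as copies, 135 in enriched KPC-4545, 0 in whole KPC-4545 and 8 in each KPC-3403 library. Tumour-like and fibroblast-like cells are clusters named from marker genes, with the 8 genes left out of the clustering. The tumour-like class was named from a list of epithelial or tumour markers, keratins among them. The score for this list was -0.057 in cluster 1, with 518 of the 819 tumour-like cells of enriched KPC-4545. It was 0.156, 0.0866 and 0.402 in clusters 12, 18 and 20, which held nearly all the others. KPC-3403 tumour-like cells lay mainly in clusters 2, 3 and 14, with scores of 0.549, 1.70 and 3.20. In enriched KPC-4545 the class name therefore rests mainly on scores below 0.5. Host epithelial cells in this class cannot be told apart from cells of the lines. Tumour-like cells numbered 819, 60, 702 and 307 in the order above, and fibroblast-like cells 40, 10, 1252 and 34. Cluster 0 held 907 of the 1252 fibroblast-like cells of enriched KPC-3403, and cluster 4 held 27 of the 40 of enriched KPC-4545. Over all libraries, 88.5% of cluster 0 cells held a UMI of Wt1, from the mesothelial list, which scored second there (0.562 against 1.19 for fibroblast). In enriched KPC-3403, Wt1 stood at 1.89 UMIs per 10000 in fibroblast-like and 2.22 in mesothelial-like cells. Although the sort removed EPCAM-positive cells, tumour-like cells made up 54.0% of enriched KPC-4545 cells and 28.5% of enriched KPC-3403 cells. Epcam stood at 0.00147 UMIs per 10000 in the tumour-like cells of enriched KPC-4545, against 0.347 in enriched KPC-3403, 4.15 in whole KPC-4545 and 5.49 in whole KPC-3403, while the keratin gene Krt18 lay between 11.5 and 23.4 in all of them.

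BMP ligands are secreted dimers that bind paired type I and type II receptors, whose kinase phosphorylates the transcription factors SMAD1, SMAD5 and SMAD9. These bind DNA with SMAD4 and switch on the Id genes, whose products hold E proteins away from DNA and keep cells from differentiating. Gremlin binds the ligands outside the cell, whereas Bambi resembles a type I receptor without a kinase. In the gut and pancreas, BMP ligands and their antagonists are known to pass between epithelium and stroma, and Id genes are the usual readout of the signal.

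The promoters of Grem1 and Bmp4 are shown because, of the tumour-like levels of both genes, that of enriched KPC-4545 was the highest, while its fibroblast-like cells held no UMI of either. The 250 bases before each transcription start are from RefSeq (GRCm38.p6), at chr2:113758649-113758898 for Grem1 and chr14:46390670-46390919 for Bmp4, both on the minus strand, and are printed 5′ to 3′ with capitals marking GGCGCC, a palindrome known from SMAD-bound elements:
Grem1: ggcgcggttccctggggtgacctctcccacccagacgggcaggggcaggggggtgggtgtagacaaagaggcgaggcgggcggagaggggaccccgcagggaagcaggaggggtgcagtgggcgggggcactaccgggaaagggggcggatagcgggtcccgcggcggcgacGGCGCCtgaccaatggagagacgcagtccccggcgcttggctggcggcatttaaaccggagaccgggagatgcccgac
Bmp4: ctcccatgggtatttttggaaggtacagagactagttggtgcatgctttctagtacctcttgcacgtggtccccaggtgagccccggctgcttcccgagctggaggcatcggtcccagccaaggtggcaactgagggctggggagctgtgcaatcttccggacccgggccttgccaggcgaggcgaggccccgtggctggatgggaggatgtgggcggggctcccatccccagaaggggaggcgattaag
The Grem1 sequence held 1 GGCGCC, which starts 78 bases before the transcription start, and the Bmp4 sequence held none. Over windows of 250 bases before to 50 after the start, GGCGCC occurred in 11.9% of 32851 mouse promoters. The shorter SMAD motif GTCTG, searched on both strands with CAGAC, occurred in 49.6% of these windows. The Grem1 window held 2 and the Bmp4 window 0, and 1 of the 2 lay before the Grem1 start. Promoter entries matched 4 of the 8 genes. In the mm10 gene models, Grem1 lies at chr2:113746164-113758646 and Bmp4 at chr14:46383520-46390669. Bmp4 overlaps Gm15217 and Gm15222 on the other strand.

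Bmp2, a ligand best known for inducing bone, was a gene of KPC-3403 tumour-like cells. Its level, in UMIs of the gene per 10000 UMIs of the cells summed, was 1.18 (95% Poisson interval 1.12 to 1.24, 1477 UMIs) in the enriched and 0.491 (0.429 to 0.559, 227 UMIs) in the whole KPC-3403 library. KPC-4545 tumour-like cells held 3 UMIs in the enriched library, a level of 0.0011 (0.000227 to 0.00321), and 1 UMI in the whole library, a level of 0.00875 (0.000222 to 0.0488). Both KPC-3403 values lay above both KPC-4545 values without overlap of the intervals. Fibroblast-like cells had 0.175 in enriched KPC-4545 on 6 UMIs from 2 of 40 cells, 0.0804 in enriched KPC-3403 on 162 UMIs and 0.0688 in whole KPC-3403 on 4 UMIs. In the whole KPC-3403 library, B-like, T-like and NK-like cells held 0 Bmp2 UMIs, while barcodes with at most 100 UMIs, which carry free RNA, had a level of 0.379, above that of fibroblast-like cells.

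Bmp4, a ligand of early mesoderm and gut development, was present in tumour-like cells of both lines. Tumour-like cells had 0.204 (557 UMIs) in enriched KPC-4545, 0.114 (13 UMIs) in whole KPC-4545, 0.115 (144 UMIs) in enriched KPC-3403 and 0.0886 (41 UMIs) in whole KPC-3403. Fibroblast-like cells had no Bmp4 UMI in enriched KPC-4545, where a count of 0 allows up to 0.0877 (3 counts), and 0.0462 and 0.0172 in enriched and whole KPC-3403. Within the fibroblast-like cells of enriched KPC-3403, the 44 cells of cluster 21, led by Mmp3, Gsn and Ccl11, had 0.512 (0.287 to 0.845), above the 0.038 of cluster 0, led by Cxcl13 and Saa3, and the 0.0447 of cluster 4, led by Sfrp4 and Postn. Mesothelial-like cells, seen in number only in enriched KPC-3403 (113 cells), had 0.128 on 30 UMIs. Bmp4 in free RNA was 0.132 and 0.0418 in enriched and whole KPC-4545, and 0.0448 and 0.0363 in enriched and whole KPC-3403. These levels lay below the tumour-like one of each library and close to or above the fibroblast-like ones.

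Bmp7, which often pairs with Bmp2 or Bmp4 in heterodimers, also had its highest tumour-like value in enriched KPC-3403, at 0.215 (268 UMIs). The other tumour-like values were 0.067 (31 UMIs) in whole KPC-3403, 0.0374 (0.0305 to 0.0454) in enriched KPC-4545 and 0.0263 (3 UMIs) in whole KPC-4545. Bmp7 in free RNA was 0.0524 and 0.0313 in whole KPC-3403 and whole KPC-4545, and 0.0373 and 0.0263 in enriched KPC-3403 and enriched KPC-4545. The tumour-like intervals of whole KPC-3403 (0.0455 to 0.0951) and whole KPC-4545 (0.00542 to 0.0767) include the free RNA level of the same library. Fibroblast-like cells gave 18 UMIs in enriched KPC-3403 and 1 UMI in each of enriched KPC-4545 and whole KPC-3403. Mesothelial-like cells of enriched KPC-3403 had 0.0853 (20 UMIs). T-like cells had Bmp7 as well, at 0.121 (7 UMIs) in whole KPC-4545 and 0.109 (11 UMIs) in whole KPC-3403, a range that overlaps the tumour-like one.

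Grem1, often described as a fibroblast gene, had higher values in tumour-like than in fibroblast-like cells, but not than in every stromal cluster. Its levels in tumour-like cells were 0.331 (904 UMIs) in enriched KPC-4545, 0.263 (30 UMIs) in whole KPC-4545, 0.207 (258 UMIs) in enriched KPC-3403 and 0.0195 (9 UMIs) in whole KPC-3403. Fibroblast-like cells had 15 UMIs in enriched KPC-3403, a level of 0.00745, and none in enriched KPC-4545 or whole KPC-3403, where a count of 0 allows 0.0877 and 0.0516. Grem1 in free RNA was 0.21 and 0.0209 in enriched and whole KPC-4545, and 0.0274 and 0.0242 in enriched and whole KPC-3403. The tumour-like level of whole KPC-3403 lay below its free RNA. In enriched KPC-3403, 216 of the 258 tumour-like UMIs came from the 42 cells of cluster 1, which otherwise holds mainly KPC-4545 cells, and cluster 1 had 1.84 (1.60 to 2.10) there against 0.0468 in cluster 2 and 0 in clusters 3 and 14. Outside both classes, the unnamed cluster 8 of enriched KPC-3403, led by the contractile genes Tagln and Acta2 with Col1a1, had 0.215 (0.172 to 0.266, 85 UMIs). Its 10 fibroblast markers summed to 296 per 10000, against 204 in the fibroblast-like class of that library. The low fibroblast-like Grem1 values therefore leave out these marker-rich cells. The unnamed cluster 6 of enriched KPC-4545, led by the nuclear RNA Neat1, had 0.995 on 201 UMIs.

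Bambi ran the other way. Tumour-like cells had between 0.00432 (2 UMIs, whole KPC-3403) and 0.0263 (3 UMIs, whole KPC-4545), with 0.0227 and 0.0208 in the enriched KPC-4545 and KPC-3403 libraries. Fibroblast-like cells had 0.205 (7 UMIs) in enriched KPC-4545, 0.364 (733 UMIs) in enriched KPC-3403 and 0.172 (10 UMIs) in whole KPC-3403, and in each library these lay above the tumour-like value. In enriched KPC-3403, 689 of the 733 UMIs came from cluster 0, at 0.429 (0.398 to 0.463). Cluster 4 had 0.108 (0.0773 to 0.146) there, still above the tumour-like 0.0208. B-like cells had 0.656 and 0.64 in whole KPC-4545 and whole KPC-3403. The unnamed cluster 17 of enriched KPC-3403, whose leading genes Calca and Saa3 it shares with the fibroblast-like cluster 0, had 0.591. Bambi in free RNA was 0.0789 and 0.0836 in enriched and whole KPC-4545, and 0.324 and 0.0847 in enriched and whole KPC-3403. The fibroblast-like interval of enriched KPC-3403 (0.338 to 0.391) lay just above this, and that of whole KPC-3403 (0.0825 to 0.316) included it. The part of free RNA in these levels was not tested.

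The stacked plot of sources gives each gene's UMIs by class in the whole libraries, where no class was sorted out. In whole KPC-3403, tumour-like cells were 28.1% of the cells and held 97.0% of Bmp2 UMIs (227 of 234, Clopper-Pearson 95% interval 93.9% to 98.8%), 77.4% of Bmp4 (41 of 53) and 66.0% of Bmp7 (31 of 47). In whole KPC-4545, where they were 11.4% of the cells, they held all 13 Bmp4 UMIs and all 30 Grem1 UMIs but 1 of the 7 Bmp2 UMIs and 3 of the 12 Bmp7 UMIs, of which T-like cells held 7. Of the Id genes in whole KPC-3403, tumour-like cells held 81.3% of Id1 UMIs (1134 of 1395) and 43.3% of Id2 (717 of 1656), whereas fibroblast-like cells, 3.12% of the cells, held 37.0% of Id3 (480 of 1299). In whole KPC-4545 tumour-like cells held 54.8% of Id1 UMIs and neutrophil-like cells, 4.92% of the cells, held 34.5%. T-like cells, 25.4% of the cells there, held 38.3% of Id2 and tumour-like cells 27.5%. B-like cells held 34.4% of Id3, close to their 33.5% of the cells. Tumour-like cells held 27.4% of Id3 and fibroblast-like cells, 1.89% of the cells, held 17.9%. T-like and B-like cells, 20.4% and 11.4% of the cells, held 28.5% and 25.4% of the 130 Bambi UMIs of whole KPC-3403. All intervals here cover counting error only. Tumour-like cells also held more UMIs per cell, in the median 9265 in whole KPC-3403 against 4053 in T-like and 3058.5 in B-like cells. Their share of cells thus understates their share of all UMIs. In UMIs per 10000, tumour-like Id2 was below the level of all cells, 1.55 against 1.82 in whole KPC-3403 and 1.24 against 1.54 in whole KPC-4545. So was Id3, 0.603 against 1.43 and 0.508 against 0.63. Tumour-like Bmp7 in whole KPC-3403, 0.067 (0.0455 to 0.0951), overlapped the 0.0517 of all cells.

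**Figure D1:**
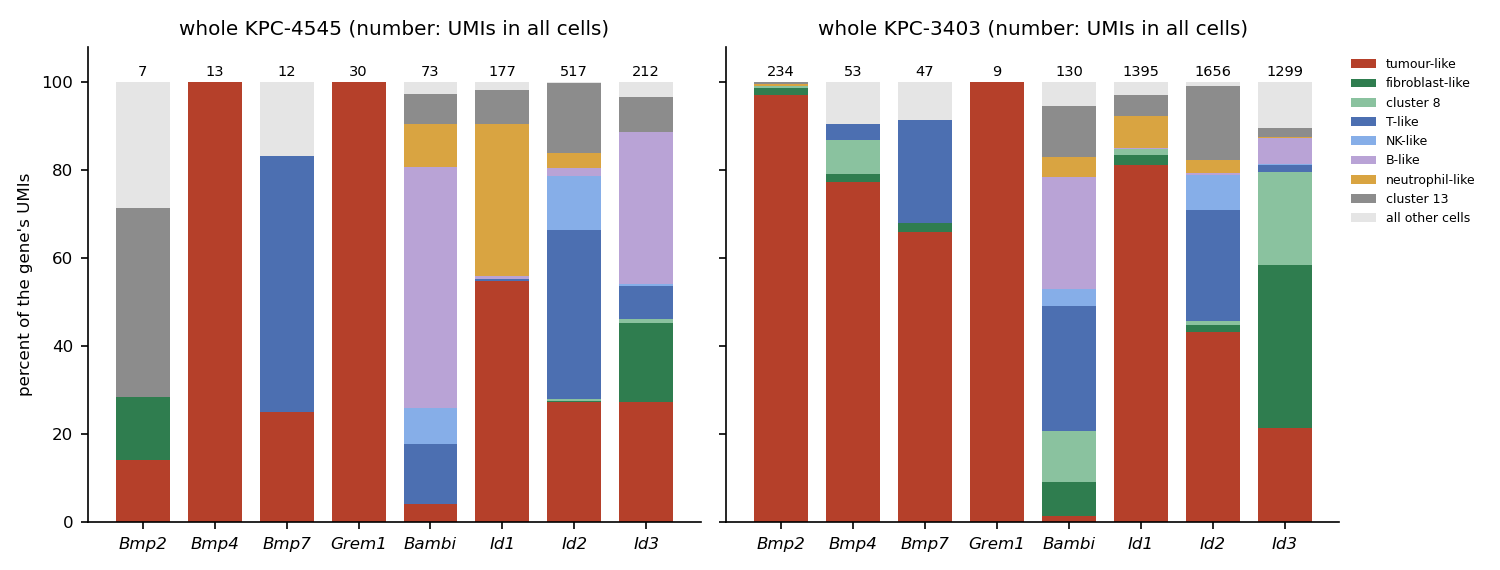
Stacked bars give the percent of each gene's UMIs (y axis) that came from each cell class in the whole KPC-4545 and whole KPC-3403 libraries, with the number of UMIs in all cells above each bar. Tumour-like cells fill 97.0% of the Bmp2 bar in whole KPC-3403, while fibroblast-like cells hold the largest part of Id3 there, 37.0%.

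The Id genes split between compartments. Id1 in tumour-like cells stood at 2.10 in enriched KPC-4545, 0.849 in whole KPC-4545, 2.99 in enriched KPC-3403 and 2.45 in whole KPC-3403. The 0.849 (0.689 to 1.04) is close to cluster 17 (0.912) and mesothelial-like cells (0.738) of enriched KPC-3403. Free RNA held Id1 at 1.30 and 0.512 in enriched and whole KPC-4545, and 0.919 and 1.27 in enriched and whole KPC-3403. Fibroblast-like cells had no Id1 UMI in enriched KPC-4545, 0.529 in enriched KPC-3403 and 0.499 in whole KPC-3403, so no library had overlapping intervals. Cluster 0 held 977 of the 1065 fibroblast-like Id1 UMIs of enriched KPC-3403, at 0.609 against 0.218 in cluster 4. Neutrophil-like cells reached 5.22 in whole KPC-4545, 2.76 in enriched KPC-3403 and 2.54 in whole KPC-3403, and their range overlaps that of tumour-like cells. The 5.22 rests on 3 cells of cluster 23, led by the granule genes Ngp, Camp and Ltf: the other 23 cells, in cluster 11, held 9 of the 61 UMIs, a level of 1.57. Endothelial-like cells, a class in which Id1 is a well-known BMP target, numbered 5 in whole KPC-3403 and 3 in whole KPC-4545, and had 17 Id1 UMIs, a level of 3.10, and 1 UMI, a level of 0.526.

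Id2 had higher class values in KPC-3403 than in KPC-4545 tumour-like cells, but not in every cluster. It was 2.18 and 1.55 in enriched and whole KPC-3403, 1.24 in whole KPC-4545 and 0.327 in enriched KPC-4545. The intervals of the whole libraries overlapped (1.44 to 1.67 against 1.05 to 1.47). In cluster 3, whole KPC-4545 had 2.29 (1.88 to 2.78), above the 1.45 (1.31 to 1.60) of whole KPC-3403. Free RNA held Id2 at 0.632 and 1.36 in enriched and whole KPC-3403, and 0.75 and 1.32 in enriched and whole KPC-4545. Fibroblast-like cells lay between 0.319 and 0.497 in the 3 libraries with at least 20 of them, so that tumour-like cells were above them in both KPC-3403 libraries but not in enriched KPC-4545, where the intervals overlapped. Id2 is required for NK cells and innate lymphocytes, and NK-like cells had the highest level, 5.22 in whole KPC-4545 and 8.60 in whole KPC-3403. T-like cells followed at 3.42 and 4.16, and the unnamed cluster 13, led by the myeloid genes Cst3, Ctss and C1qb, at 2.29 and 4.04, which overlaps the T-like range.

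Id3 was higher in fibroblast-like than in tumour-like cells as classes, though not between all of their clusters. Fibroblast-like cells had 9.97 in enriched KPC-4545, 12.8 in enriched KPC-3403 and 8.25 in whole KPC-3403. The 10 fibroblast-like cells of whole KPC-4545, under the minimum of 20, had 2.26 (1.60 to 3.10, 38 UMIs), below the free RNA of that library. Tumour-like cells had 5.83 in enriched KPC-4545, 2.31 in enriched KPC-3403, 0.603 in whole KPC-3403 and 0.508 in whole KPC-4545. Between the largest clusters of enriched KPC-4545 the order turned. Cluster 4, with 27 of the 40 fibroblast-like cells, had 6.73 (5.70 to 7.89). Cluster 1, with 518 of the 819 tumour-like cells, had 8.10 (7.97 to 8.24). The other mesenchymal groups of enriched KPC-3403 lay within the range of fibroblast-like cells over libraries, with cluster 17 at 12.5, cluster 8 at 12.7 and mesothelial-like cells at 9.57. Free RNA held Id3 at 9.94 in enriched KPC-3403, 3.55 in enriched KPC-4545, 1.96 in whole KPC-3403 and 2.85 in whole KPC-4545. The fibroblast gene Dcn stood at 1.16 in tumour-like cells of enriched KPC-3403, 0.135 in enriched KPC-4545 and 0.0173 in whole KPC-3403, and the part of free RNA in their Id3 level was not tested.

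**Figure D2:**
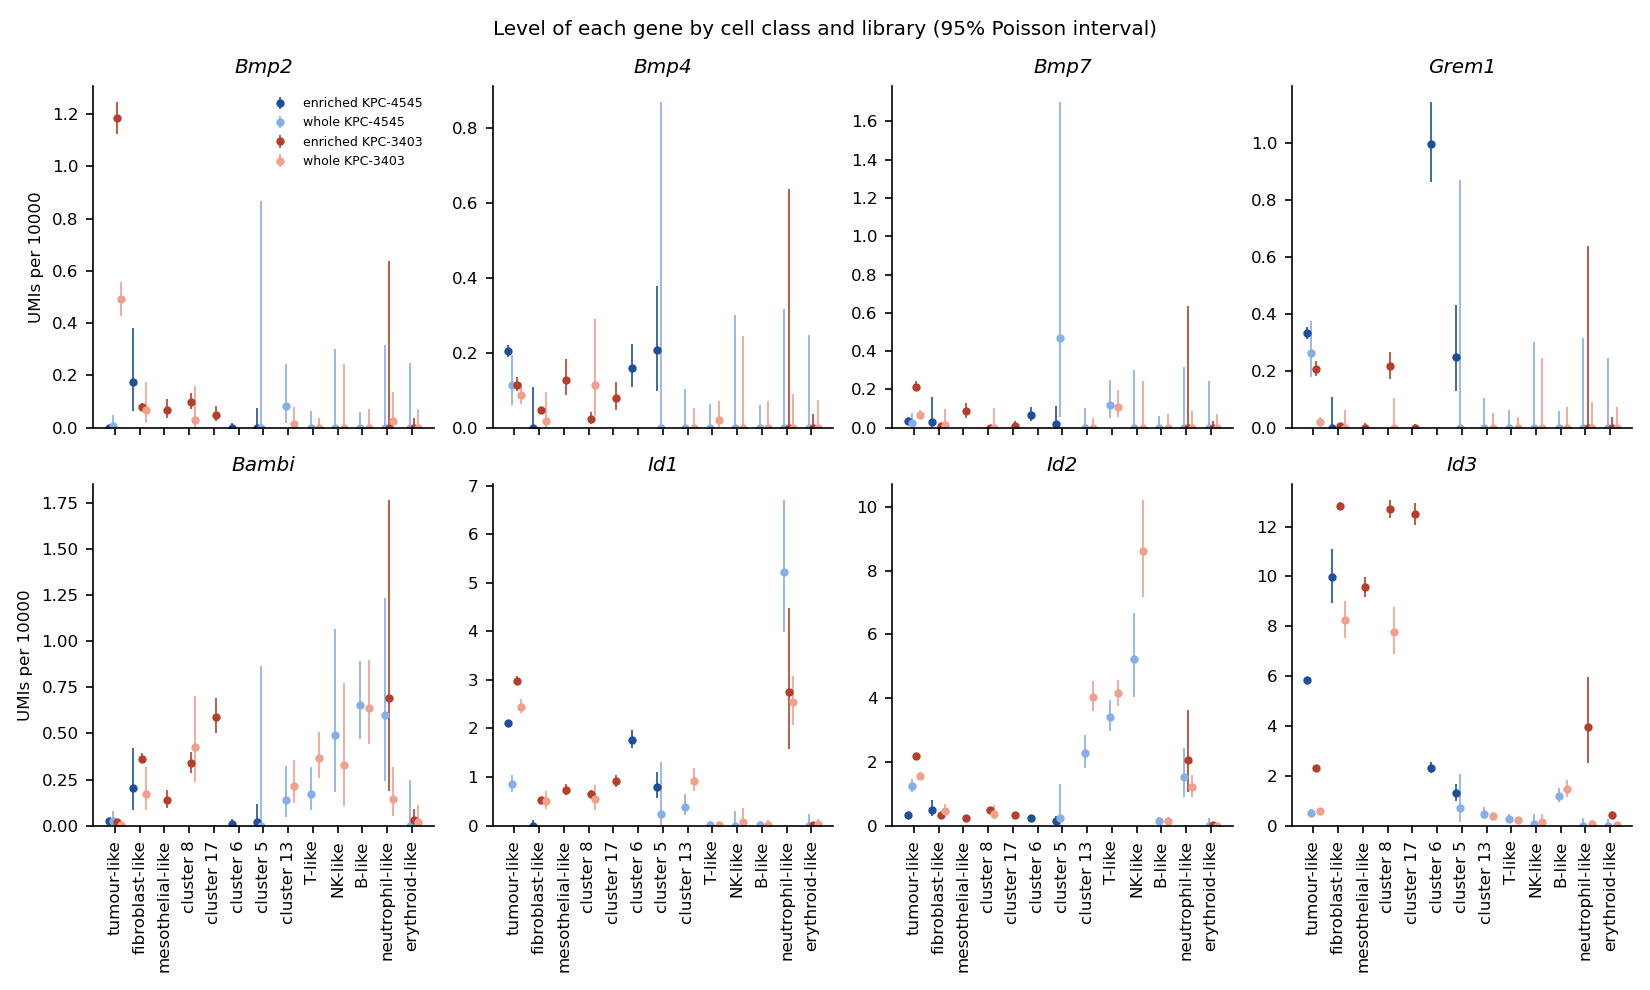
Each panel gives 1 gene, with UMIs per 10000 on a linear y axis, cell classes with at least 20 cells in a library on the x axis, 1 point per library (colour) and 95% Poisson intervals as bars. Bmp2 stands out in KPC-3403 tumour-like cells (1.18 and 0.491), Id2 in NK-like cells (5.22 and 8.60) and Id3 in fibroblast-like cells (8.25 to 12.8).

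Tumour-like and fibroblast-like sums were then compared across the 3 libraries with at least 20 cells of each, with the library as a block. Of 13476 genes tested with edgeR's quasi-likelihood test (Benjamini-Hochberg adjusted p under 0.05), 22.6% were called, 9.94% higher in tumour-like cells and 12.7% higher in fibroblast-like cells. Of the 8 genes, 2 were called higher in tumour-like cells and 2 higher in fibroblast-like cells, and their median log2 difference was 1.87, against 0.07 over all genes tested. Grem1 was higher in tumour-like cells by 4.73 on the log2 scale (SE 0.64, edgeR adjusted p = 0.00144), in 3 of 3 libraries. In whole KPC-3403 that order rested on 9 tumour-like UMIs against 0, and the intervals of the classes overlapped. The unnamed cluster 8, which also held Grem1, is in neither sum. Bmp7 was higher by 3.53 (SE 0.87, edgeR adjusted p = 0.022), also in 3 of 3 libraries, although in enriched KPC-4545 and whole KPC-3403 the fibroblast-like value rested on 1 UMI and the intervals of the classes overlapped. Bambi fell by 4.09 from fibroblast-like to tumour-like cells (SE 0.51, edgeR adjusted p = 0.000994), and Id3 fell by 2.42 (SE 0.65, edgeR adjusted p = 0.0466), each in 3 of 3 libraries.

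The other 4 genes did not pass the test. Id1 differed by 3.04 (SE 0.90, edgeR adjusted p = 0.0769) and Bmp4 by 1.82 (SE 0.65, edgeR adjusted p = 0.0792), both positive in 3 of 3 libraries. For Bmp4 in whole KPC-3403, on 41 UMIs against 1, the intervals of the classes overlapped. Id2 differed by 1.37 (SE 0.64, edgeR adjusted p = 0.185) and Bmp2 by 1.92 (SE 2.54, edgeR adjusted p = 0.664), and for both the enriched KPC-4545 library pointed the other way.

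These calls depend on single libraries. Without enriched KPC-4545, all 8 genes passed, but so did 4782 of 13023 genes tested, a larger share than over the 3 libraries. Bmp2 was then at 3.52 (edgeR adjusted p = 1.96e-07), Id1 at 2.33 (1.1e-06), Id2 at 2.25 (4.94e-06) and Bmp4 at 1.31 (0.0443). Without enriched KPC-3403, where 1038 of 10573 genes passed, Bambi alone of the 8 passed, at an edgeR adjusted p of 0.0102. Bmp2 turned to -1.30 (0.955) there, Id3 had an adjusted p of 0.181, and Bmp7 and Grem1 had too few UMIs to be tested. Without whole KPC-3403, where 2304 of 13236 genes passed, Bmp2 shrank to 0.50 (edgeR adjusted p = 0.989) and Id1 passed (1.27e-05). Id3 had an adjusted p of 0.052 there, and Bmp7, Grem1 and Bambi still passed. With the shared barcodes kept, Grem1 and Bambi passed, Id1 passed as well (0.015), and Bmp7 (0.0561) and Id3 (0.109) did not. Grem1 did not pass with cells of at least 1000 UMIs (1.52, edgeR adjusted p = 0.273) or at clustering resolution 2 (0.25), and Bmp7 did not pass with DESeq2 (2.76, adjusted p = 0.0835).

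**Figure D3:**
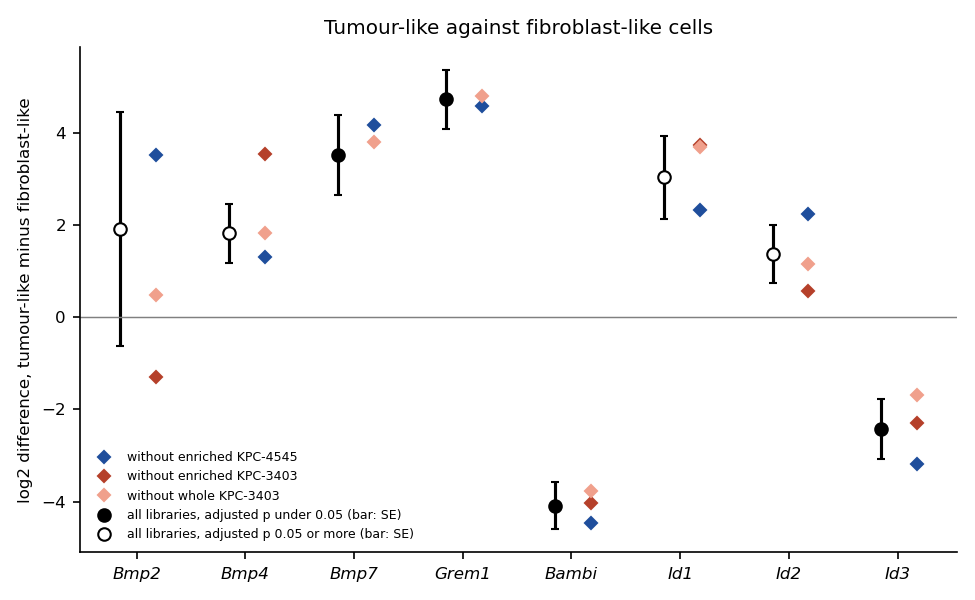
The y axis gives the log2 difference of tumour-like minus fibroblast-like cells for each gene, with circles for the fit over 3 libraries (filled where the adjusted p is under 0.05, bars for 1 SE) and diamonds for fits that leave out 1 library. Bambi stays between -4.47 and -3.78 without any 1 library, whereas Bmp2 runs from -1.30 to 3.52.

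The other ligands, receptors and antagonists that were called were all higher in fibroblast-like cells, as were 12.7% of all genes tested. Of 14 other BMP and GDF ligands, 8 were tested; none was called higher in tumour-like cells and 6 were called lower, with a median log2 difference of -3.77. Gdf10, an inhibitory family member, had 182 UMIs in fibroblast-like cells and 0 in tumour-like cells of enriched KPC-3403, and 13 against 0 in enriched KPC-4545 (edgeR adjusted p = 0.00169). Gdf6 had 196 fibroblast-like UMIs against 2 tumour-like ones in enriched KPC-3403 (edgeR adjusted p = 0.00129), and Bmp3 had 44 against 0 (0.0159). Bmp1, the procollagen protease that also cleaves the BMP antagonist chordin, stood at 2.81, 2.57 and 3.30 per 10000 in fibroblast-like cells of the enriched libraries of KPC-4545 and KPC-3403 and of whole KPC-3403, against 0.26, 0.302 and 0.097 in tumour-like cells (fell by 3.89, SE 0.47, edgeR adjusted p = 0.000849).

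Among receptors and co-receptors, 9 of 10 were tested, none was called higher in tumour-like cells and 4 were called lower, with a median of -0.95. The type I receptor Acvrl1 fell by 8.26 (edgeR adjusted p = 0.000219), the co-receptors Rgma and Eng fell by 3.94 (0.00812) and 2.79 (0.00735), and the type I receptor Bmpr1a fell by 1.31 (0.0244). The type II receptor Bmpr2 had -0.95 and an adjusted p of 0.0528. Of 14 other antagonists, 10 were tested and 6 were called, all lower in tumour-like cells (median -2.90). The follistatin-like Fstl1 stood between 7.72 and 13.0 per 10000 in fibroblast-like cells and between 0.0202 and 0.11 in tumour-like cells (edgeR adjusted p = 0.000818). The ligand-binding genes Bmper and Chrdl1 fell by 5.34 (edgeR adjusted p = 0.0376) and 5.28 (0.0154).

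Of the SMAD genes, 7 of 8 were tested and 1 was called, a share close to that of all genes, the inhibitory Smad7, which fell by 1.07 (edgeR adjusted p = 0.0488). Of 8 other BMP target genes, 7 were tested; the transcriptional repressor gene Hey1 was called higher in tumour-like cells by 3.14 (edgeR adjusted p = 0.0348), while Bmper, Smad7 and Id4, the last by 2.30 (0.0382), were called lower. None of the 3 genes for the E proteins that Id proteins bind was called: Tcf4 had -0.96 (edgeR adjusted p = 0.0802) and Tcf3 0.90 (0.0988). Of 16 immediate early genes, 6 were called lower in tumour-like cells and none higher, among them Nr4a1, Klf4, Zfp36 and Dusp1, which fell by 2.64 (edgeR adjusted p = 0.00159), 1.76 (0.00693), 1.57 (0.0255) and 1.44 (0.0199).

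The lines were compared within tumour-like cells, over 4 libraries with the preparation as a term and 1 residual degree of freedom. Of 12288 genes tested with edgeR's quasi-likelihood test, 0% were called (0 genes, 2013 at an unadjusted p under 0.05; DESeq2 called 423), and none of the 8 genes was called. Bmp2 had the largest difference of the 8, 9.39 on the log2 scale higher in KPC-3403 (SE 0.94, unadjusted p = 0.000953, edgeR adjusted p = 0.166), higher in both preparations. That estimate rests on 3 and 1 UMIs in KPC-4545. None of the listed pathway genes was called either. The BMP target gene Msx1 had a smaller unadjusted p than Bmp2 and the opposite sign, -6.82 (SE 0.68, unadjusted p = 0.000488, edgeR adjusted p = 0.163), on 654 and 13 UMIs in enriched and whole KPC-4545 against 3 and 0 in KPC-3403. The difference of Bmp7 was 2.24 (SE 0.49, edgeR adjusted p = 0.245), that of Id1 1.08 (SE 0.32, 0.268), that of Id2 1.62 (SE 0.82, 0.431) and that of Grem1 -1.82 (SE 0.93, 0.426). DESeq2 called Bmp2 (adjusted p = 2.68e-13). Without whole KPC-4545, in a fit with the line alone and KPC-4545 as 1 library, Id2 differed by 2.59. With each library left out in turn, Bmp2 stayed between 6.59 and 9.54.

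For the rest of the pathway between lines, the 2 most abundant genes of each list are given. The ligand gene Gdf15 differed by 2.17 (edgeR adjusted p = 0.33) and Bmp1 by -0.23 (0.792), the receptor gene Bmpr2 by 0.54 (0.46) and the co-receptor gene Rgmb by 0.16 (0.814). The antagonist genes Nbl1 and Fst differed by 1.06 (edgeR adjusted p = 0.249) and 0.19 (0.85), Smad7 and Smad1 by 1.03 (0.241) and 0.33 (0.61), and the E protein genes Tcf4 and Tcf3 by -0.96 (0.246) and -0.30 (0.52). Of the immediate early genes, Fos and Junb differed by -0.09 (edgeR adjusted p = 0.941) and 0.23 (0.807).

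The tumour-like classes of the lines were held by different clusters. In enriched KPC-4545, 518 of 819 cells were in cluster 1 (led by Cdkn2a, Spp1 and Crabp2) and 152 in cluster 12 (proliferation genes with Krt7). Of the 702 enriched KPC-3403 cells, 451 were in cluster 2 (led by Sprr1a and Onecut2), 176 in cluster 3 (led by Tff1 and Tff2), 42 in cluster 1, 27 in cluster 14 (led by Reg3g and Dmbt1) and 6 in cluster 12. Of the 307 whole KPC-3403 cells, 177 were in cluster 3, 90 in cluster 14, 39 in cluster 2 and 1 in cluster 1. Of the 60 cells of whole KPC-4545, 34 were in cluster 3, so the whole and enriched cells of that line differ in cluster as well as in preparation. Whether clusters 3 and 14 hold host epithelium was not tested.

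Among the KPC-3403 tumour-like clusters with at least 20 cells in a library, cluster 2 had the highest values of Bmp2, Id1 and Id2, but the other clusters did not keep 1 order. In cluster 2, Bmp2 was 1.99 and 1.55 in the enriched and whole libraries, Id1 3.31 and 3.61, and Id2 3.13 and 2.84. In cluster 3 the values were 0.354 and 0.483 for Bmp2, 2.72 and 2.24 for Id1, and 1.44 and 1.45 for Id2. Cluster 14 had 0.268 and 0.159 for Bmp2, 1.38 and 2.40 for Id1, and 0.759 and 1.26 for Id2. In whole KPC-3403 the cluster 14 values of Bmp2 and Id2 lay below free RNA (0.379 and 1.36). Cluster 3 there was above it for Bmp2 (0.405 to 0.572), while its Id2 interval (1.31 to 1.60) included it. The intervals of cluster 2 lay above those of clusters 3 and 14 for all 3 genes in both libraries. Cluster 1, seen with 42 cells in enriched KPC-3403, had Bmp2 at 0.613, above cluster 3, but Id2 at 0.852, below cluster 3, and Id1 at 3.04 (2.73 to 3.37), whose interval overlaps that of cluster 2. Id3 was highest in cluster 1, at 4.81 (4.42 to 5.23), followed by 2.82 and 1.82 in cluster 2, 1.11 and 0.465 in cluster 3, and 0.625 and 0.389 in cluster 14. KPC-3403 has 1 library of each preparation, so these orders have no replicate test.

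Across the lines, clusters with hardly any Bmp2 also held Id mRNA. In enriched KPC-4545, cluster 1 had 1 Bmp2 UMI and clusters 12, 18 and 20 had 0, with Id1 between 1.58 and 2.36, a range that overlaps that of clusters 3 and 14 in KPC-3403. Cluster 1 of enriched KPC-4545 had the highest Id3 of any tumour-like cluster, 8.10. Cluster 3 of whole KPC-4545 had Id2 at 2.29 with 1 Bmp2 UMI.

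**Figure D4:**
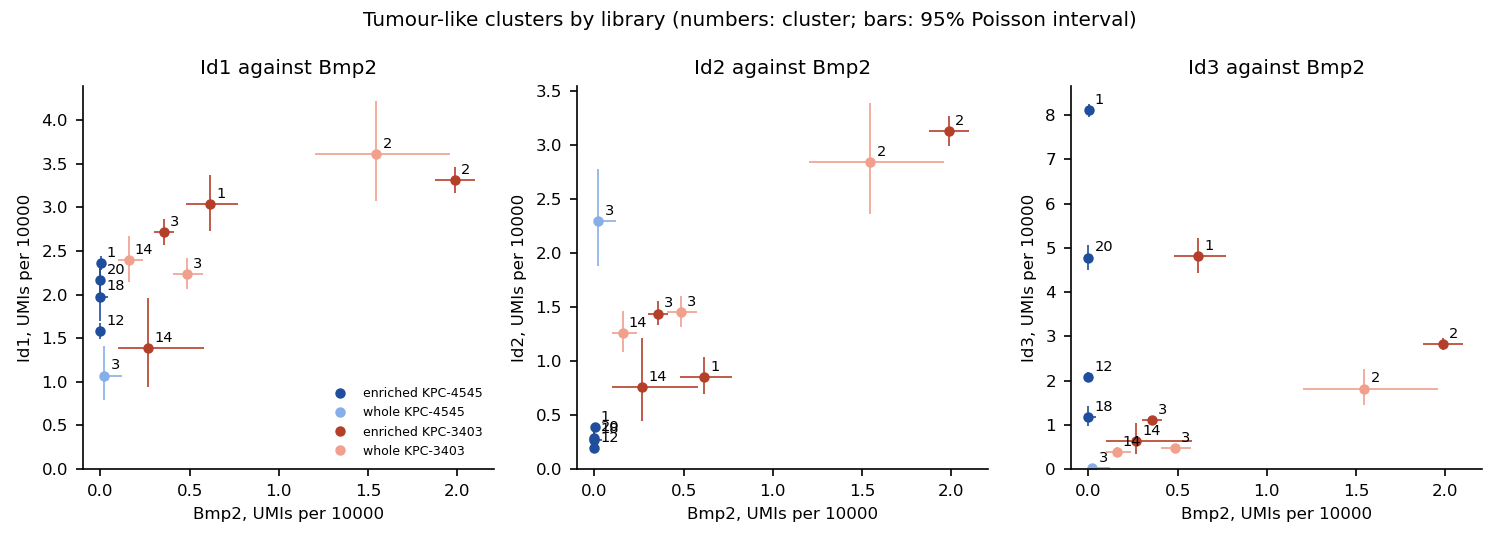
Each point is 1 tumour-like cluster (number) in 1 library (colour) with at least 20 cells; the x axis gives Bmp2 and the y axes Id1, Id2 and Id3, all in UMIs per 10000 on linear axes, with 95% Poisson intervals as bars. Cluster 2 of KPC-3403 is highest for Bmp2 and Id2, and KPC-4545 clusters at or near 0 for Bmp2 have Id1 up to 2.36 and Id3 up to 8.10.

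Id levels were also set side by side for cells with and without a Bmp2 UMI. Among cluster 2 cells of enriched KPC-3403, each thinned to 2000 UMIs, the 85 cells with a Bmp2 UMI had Id1 at 3.24 (95% Poisson interval 2.44 to 4.21), Id2 at 3.41 (2.59 to 4.41) and Id3 at 3.18 (2.39 to 4.14). The 330 cells without one had 3.38 (2.95 to 3.85), 3.02 (2.61 to 3.46) and 2.56 (2.19 to 2.98). All 3 pairs of intervals overlapped, so a difference was not detectable at this depth, at which cells without a Bmp2 UMI can still express it.

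At a fixed depth of 1000 UMIs per cell, 8.65% of enriched KPC-3403 tumour-like cells (59 of 682; Clopper-Pearson 95% interval 6.65% to 11.02%) and 4.92% of whole KPC-3403 ones (13 of 264; 2.65% to 8.27%) held a Bmp2 UMI. Of 812 enriched KPC-4545 tumour-like cells none did, so the share could be as high as 0.369% (3 cells of 812). Without thinning, over the same cells, the shares were 39.4%, 26.5% and 0.246%. The fibroblast-like cells of enriched KPC-3403, at 15694.5 UMIs per cell in the median against 16182.5 for the tumour-like ones, had 1.21% (15 of 1235). For Id3 the thinned shares were 56.4% of fibroblast-like and 12.3% of tumour-like cells in enriched KPC-3403, 36.1% and 32.4% in enriched KPC-4545, and 45.5% and 1.89% in whole KPC-3403. The KPC-4545 pair of intervals overlapped, 20.8% to 53.8% against 29.2% to 35.7%. Thinning left out 20, 43 and 7 tumour-like cells of enriched KPC-3403, whole KPC-3403 and enriched KPC-4545, and 17 fibroblast-like cells of enriched KPC-3403.

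Over all 28 class-by-library sums of at least 20 cells, the relation of ligand and Id levels differed between pairs. On the log2(UMIs per 10000 + 0.1) scale, Pearson's r was 0.34 (Spearman 0.32) for Bmp2 with Id1, 0.32 (0.56) for Bmp2 with Id3, 0.51 (0.46) for Bmp4 with Id1, 0.46 (0.54) for Bmp4 with Id3, 0.42 (0.46) for Grem1 with Id1 and -0.18 (-0.13) for Bmp4 with Id2. These 28 points share libraries and depth, and classes with few UMIs sit at 0 for several genes, so the values are descriptions only.

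By the same measure, the genes with the pattern closest to each member were Flt1 (0.86), Tm4sf4 and Prl2c3 for Bmp2, Cavin2 (0.89), Efnb2 and Tspan7 for Bmp4, and Tnnt2 (0.71), Sdcbp2 and Nacc1 for Bmp7, among 8476 genes compared. For Grem1 they were C430049B03Rik (0.88), Gm14636 and Rgs17, and for Bambi Pde4b (0.82), Pbxip1 and Cotl1. Id1 was most like Ralb (0.88), Gsr and Bnip3, Id2 most like Fam129a (0.86), Gramd1b and AW112010, and Id3 most like Cnn3 (0.92), Fkbp7 and Crtap.

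The preparations were compared last, over all cells of the 4 libraries with the line as a term. None of 15090 genes was called by edgeR's quasi-likelihood test (0%; 2447 at an unadjusted p under 0.05; DESeq2 called 1555), and so none of the 8. Id3 was higher in the enriched libraries by 2.90 on the log2 scale (SE 0.29, unadjusted p = 0.000742, edgeR adjusted p = 0.104), in both lines, and Grem1 by 2.50 (SE 0.48, 0.168), while Id2 had -1.66 (SE 0.45, 0.232). DESeq2 called these 3. With each library left out in turn, in fits with no line term, Id3 ran from 2.31 to 3.54 and Id2 from -2.48 to -0.91. Grem1 ran from 0.95 to 4.45, Bmp4 from 0.53 to 1.87 and Bambi from -2.96 to 0.55. Of the listed pathway genes none was called; the 2 most abundant of each list were Bmp1 (1.19, edgeR adjusted p = 0.419) and Gdf15 (1.24, 0.375), Bmpr2 (0.89, 0.288) and Bmpr1a (0.12, 0.919), Fstl1 (0.38, 0.917) and Nbl1 (1.34, 0.189), Smad7 (0.66, 0.359) and Smad1 (0.56, 0.444), Bmper (0.55, 0.722) beside Smad7, Tcf4 (0.24, 0.778) and Tcf3 (0.40, 0.587), and Fos (2.05, 0.16) and Junb (1.11, 0.235). Sums over all cells carry the class makeup, so fewer cells of a class and less RNA per cell cannot be told apart in them.

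Within tumour-like cells 2 of 12288 genes were called by edgeR's quasi-likelihood test (0.0163%; 1299 at an unadjusted p under 0.05; DESeq2 called 380), Prss2 and Hbb-bs, markers of acinar and erythroid cells, both lower in the enriched libraries; they are named because the count is so small. None of the 8 was called. Id3 had 2.67 (SE 0.49, unadjusted p = 0.0074, edgeR adjusted p = 0.442), Id1 0.75 (SE 0.32, 0.489), Id2 -0.73 (SE 0.81, 0.739) and Bmp7 1.27 (SE 0.49, 0.482). DESeq2 called Id3 alone of the 8 (adjusted p = 3.64e-06). Without enriched KPC-3403, in a fit with no line term and 1 enriched library, Id3 had 3.28 and Id2 -2.20. None of the listed pathway genes was called: Gdf15 had 4.76 (edgeR adjusted p = 0.446) and Bmp1 1.02 (0.487), Bmpr2 -0.13 (0.894) and Rgmb 0.11 (0.899), Nbl1 0.79 (0.46) and Fst 0.05 (0.976). Smad7 had 0.43 (edgeR adjusted p = 0.505), Smad1 0.25 (0.752), Msx1 1.21 (0.506), Tcf3 0.34 (0.554) and Tcf4 0.35 (0.559). Beside these, 16 of 16 immediate early genes, which respond to handling and to growth factors, were higher in enriched tumour-like cells, with a median of 1.42 against 0.01 over all genes and none called (Fos 1.56, edgeR adjusted p = 0.46; Junb 1.72, 0.45), and their part in the Id difference was not tested.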

How the data were processed

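Single-cell RNA libraries (10x Chromium 5′ chemistry, per the labels' protocols) were deposited as UMI count matrices, not normalized and with all barcodes kept; the submitters' processing notes name mm10 and Cell Ranger 6.1.1, the file headers Cell Ranger 4. A barcode was kept as a cell from 500 UMIs and 250 genes upward if no more than 20% of its UMIs were mitochondrial; below 5000 UMIs its gene profile was also tested against that of barcodes with at most 100 UMIs (Dirichlet-multinomial test, 1000 draws, false discovery rate 0.01). The top Scrublet scores, 0.8% per 1000 cells, were removed as doublets, then barcodes with under 10% of the UMIs that the same barcode had in another library. Clustering used scanpy 1.11.5 and leidenalg 0.10.2 in Python 3.11.15 (2000 variable genes without the BMP genes, 30 components, 15 neighbours, resolution 1) and gave 25 clusters. Each was named for whichever of 18 marker lists scored highest in it, with at least 3 markers in 10% of cells and a margin of 0.1; 5 stayed unnamed. These naming details were set after clusters had been seen, and the members, lists and tests were chosen with earlier results of these data known.

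UMI counts were summed per library and class, and edgeR 4.0.16 in R 4.3.3 ran the quasi-likelihood test on the sums (TMM factors, filterByExpr, robust glmQLFit), with DESeq2 1.42.0 as an alternative. On simulated data edgeR recovered 67.0% of log2 changes of 2 and 100% of changes of 4 for tumour-like against fibroblast-like cells (200 changed genes of 13110). Replicate numbers pair the libraries because each number is 1 line; enriched and whole KPC-4545, each taken relative to the mean of its preparation, correlated at 0.27 over 13283 genes. All 8 members are named, and of each pathway list, in each comparison, up to 4 called genes or else the 2 most abundant; Bmpr2 was added after its value was seen. One gene that this rule names is not reported here.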

Additional observations from a re-analysis of the deposited data

Results flagged for a closer look

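The tumour-like minus fibroblast-like difference, in UMIs per 10000, had opposite signs in the lines for Bmp2 and Id2. For Bmp2 it was -0.174 in enriched KPC-4545, 1.10 in enriched KPC-3403 and 0.422 in whole KPC-3403, and the intervals of the classes did not overlap in any of the 3. For Id2 it was -0.17 in enriched KPC-4545, where the intervals overlapped, 1.87 in enriched KPC-3403 and 1.09 in whole KPC-3403. The KPC-4545 side is 1 library with 40 fibroblast-like cells, of which 2 held all 6 Bmp2 UMIs. The intervals treat UMIs as independent, so the Bmp2 non-overlap there rests on these 2 cells. The difference between the lines was not tested.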

How the results depend on the processing

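Each comparison rests on 3 or 4 libraries with 1 or 2 residual degrees of freedom, and rare genes on few UMIs. Leaving out 1 library at a time moved the genes called between 1038 and 4782 for tumour-like against fibroblast-like cells (members 1 to 8), 0 and 2854 for the preparations over all cells (members 0 to 4), 0 and 742 for the preparations in tumour-like cells (0 to 2) and 0 and 565 for the lines (0 to 2). The members higher in tumour-like cells in every library were 4, or 4 to 6 without 1 library, and r of Bmp2 with Id1 ran from 0.213 to 0.508. With no replicate block, 2 members and 2077 of 12411 genes were called between tumour-like and fibroblast-like cells. Resolution 2 gave 2 members and 3308 of 13381 genes there. Leaving out the block also gave 0 genes between preparations in tumour-like cells, and Bmp2 over all cells turned to 0.56. Replicate numbers pair libraries by line, so the block was kept. A marker score of at least 0.5 gave 4979 genes and 7 members for tumour-like against fibroblast-like cells, 198 genes between preparations and 2 between lines in tumour-like cells. Without a filter on low counts, 472 genes (1 member), 883 (2 members) and 1433 (5 members) were called for the preparations over all cells, the preparations in tumour-like cells and the lines, and DESeq2 called 1555 (3 members), 380 (1 member) and 423 (1 member). With copies kept, 29 genes were called over all cells and 0 between preparations in tumour-like cells, where RLE factors and resolution 2 also gave 0, cells of at least 1000 UMIs 12, and BMP genes in the clustering 5. Between lines, these last 2 settings gave 15 and 18, and adding unnamed clusters gave 25. The Bmp2 share of 8.65% became 16.1% at 2000 UMIs, 39.4% without thinning and 11.2% with cells of at least 1000 UMIs.

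The settings with copies kept and with a score of at least 0.5 were chosen after the data had been seen. Signs turned when 1 library was left out for Bmp2 between classes (-1.30 to 3.52). Over all cells they turned for Bmp2 (-5.55 to 3.32), Bmp7 (-0.27 to 0.74) and Bambi (-2.96 to 0.55). Between preparations in tumour-like cells they turned for Bmp2 (-7.93 to 6.14), Bmp7 (-0.55 to 2.32), Bambi (-0.25 to 2.25), Id1 (-0.0028 to 1.62) and Id2 (-2.20 to 0.64), and between lines for Id3 (-2.27 to 1.56). The score of 0.5 turned Id2 (0.48) and Grem1 (-0.034) between preparations and Id3 (5.42) between lines. Between lines, cells of at least 1000 UMIs turned Bambi (0.85) and Id3 (1.17), and resolution 2 turned Bambi (0.023) and Id3 (0.60). The cause of these changes was not tested.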
